A study of Mus musculus with 6 samples.

Results

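The glucocorticoid receptor gene Nr3c1, the mineralocorticoid receptor gene Nr3c2, and 8 genes that glucocorticoids are known to induce (Fkbp5, Sgk1, Tsc22d3, Zbtb16, Sult1a1, Cdkn1a, Plin4, and Errfi1) were examined in the cerebellum of mice that lack the metal transporter gene Slc39a8 in neurons. The 10 genes were found by their Ensembl identifiers among the 53715 genes of an RNA-Seq count table, with no filter on their values. They were chosen with earlier results of these data known. The table holds 3 control and 3 Slc39a8-NSKO (neuron-specific knockout) mice, all male, C57BL/6 (C57BL/6J for the parent lines in the methods), and 4 weeks old. NSKO mice came from floxed Slc39a8 mice crossed with a Synapsin I-Cre line, whose promoter is active in neurons, so that glia, vessels, and choroid plexus keep the gene. The labels call the controls WT, the study elsewhere names its controls as Slc39a8 fl/fl, and the data cannot tell these apart. The methods state 1 cerebellum per mouse and biological replicates, although a legend speaks of technical triplicates. If the samples were technical, the p values would not describe animals.

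Glucocorticoids, mainly corticosterone in mice, enter cells and bind Nr3c1, which is held ready in the cytoplasm by Hsp90 and its cochaperones. The hormone-bound receptor moves to the nucleus and binds glucocorticoid response elements, near which it raises or lowers transcription. Nr3c2 binds the same hormone with higher affinity, so the induced genes reflect both hormone level and receptor state, and their levels vary with the time of day and with stress.

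Counts on genes ranged from 14431260 to 20844267 per mouse. The counts of any 2 libraries differed by more than sampling noise (chi-square over its degrees of freedom at least 4.01). Values are given as CPM, the usual counts scaled by library size, here with TMM (trimmed mean of M values) factors. For Slc39a8 itself, controls had 99 (mouse 1), 46 (mouse 2), and 44 counts (mouse 3), and NSKO mice had 38, 40, and 41. These counts are not scaled by library size. Scaled means were 3.601 ± 1.036 CPM in control and 2.045 ± 0.138 CPM in NSKO mice (SD, n = 3 each). The difference of -0.83 on the log2 scale (SE 0.237) had an unadjusted p of 0.00359 in edgeR's quasi-likelihood test. With Benjamini-Hochberg adjustment over 16330 genes its p was 0.534, above the threshold of 0.05 on adjusted p used throughout. Markers of Purkinje cells (7770 to 9232 CPM summed over 6 genes) and granule cells (5036 to 5452 CPM over 6 genes) were abundant in every mouse, as the tissue label requires.

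Promoter windows show where receptor binding letters stand in these genes. RefSeq start sites on GRCm38.p6 gave 17 windows for 8 of the 10 genes, and none for Nr3c1 or Zbtb16. Each window was 300 bases long, with 250 bases before the start and 50 after it. The letters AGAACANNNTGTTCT, the full palindrome of a glucocorticoid response element, were searched on both strands. They were found in 1 of the 17 windows, that of 1 of the 6 annotated starts of Sgk1, and in 3 of 32851 windows of all genes (0.00913%). Its match lies at positions -189 to -175 from the start, and the capitals below mark it.

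Sgk1, chr10:21993640-21993939, plus strand: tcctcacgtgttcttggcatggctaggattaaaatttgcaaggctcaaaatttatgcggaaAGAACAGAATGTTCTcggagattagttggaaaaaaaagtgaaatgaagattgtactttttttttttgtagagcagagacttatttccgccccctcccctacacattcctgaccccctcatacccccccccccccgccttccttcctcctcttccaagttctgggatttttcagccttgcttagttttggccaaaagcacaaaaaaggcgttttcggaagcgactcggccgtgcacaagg

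The single hexamer AGAACA, which is contained in the palindrome, was present on either strand in 5 of the 17 windows (3 of Sgk1, 1 of Sult1a1, and 1 of Tsc22d3) and in 19.0% of all windows. TGACGTCA, the cAMP response element that CREB binds, was present in 1 of the 17, a start of Errfi1, at positions -51 to -44 (capitals below), and in 1.79% of all windows. The window of Fkbp5, shown for comparison, holds none of the 3 motifs.

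Errfi1, chr4:150854820-150855119, plus strand: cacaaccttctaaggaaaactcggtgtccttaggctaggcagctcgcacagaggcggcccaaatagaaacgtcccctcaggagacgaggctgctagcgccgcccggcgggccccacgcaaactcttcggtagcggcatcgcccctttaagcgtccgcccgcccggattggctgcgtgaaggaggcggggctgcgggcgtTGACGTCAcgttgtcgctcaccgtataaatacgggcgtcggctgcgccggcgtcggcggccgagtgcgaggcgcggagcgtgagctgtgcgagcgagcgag

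Fkbp5, chr17:28486100-28486399, minus strand: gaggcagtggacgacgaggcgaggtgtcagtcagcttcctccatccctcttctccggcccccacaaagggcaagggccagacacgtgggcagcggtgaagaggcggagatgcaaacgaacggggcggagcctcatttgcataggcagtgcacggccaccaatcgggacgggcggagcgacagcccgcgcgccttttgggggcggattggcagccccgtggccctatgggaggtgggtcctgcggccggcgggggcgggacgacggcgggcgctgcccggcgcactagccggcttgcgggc

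These letters describe the windows and not binding. Sequence outside the windows was not searched, so a window without a motif does not mean a gene without one. Counts were made per gene, so that the Sgk1 counts cannot be assigned to the start with the palindrome.

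None of the 10 genes passed the threshold between NSKO and control cerebellum. Of all 16330 genes tested, 0.098% passed (16 genes). All 10 genes passed the filter on low counts. At an unadjusted p below 0.05 there were 2 of the 10, Fkbp5 (estimate above 0) and Sgk1 (estimate below 0), where 5.39% of all genes tested had such a p. In none of the 10 did the genotypes separate without overlap, whereas 10.3% of all genes did. DESeq2 also called 0 of the 10 (1 at an unadjusted p below 0.05, Fkbp5), and limma-voom called 0 (2 unadjusted). With 3 mice per genotype, the smallest p of an exact permutation test is 0.1.

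**Figure D1:**
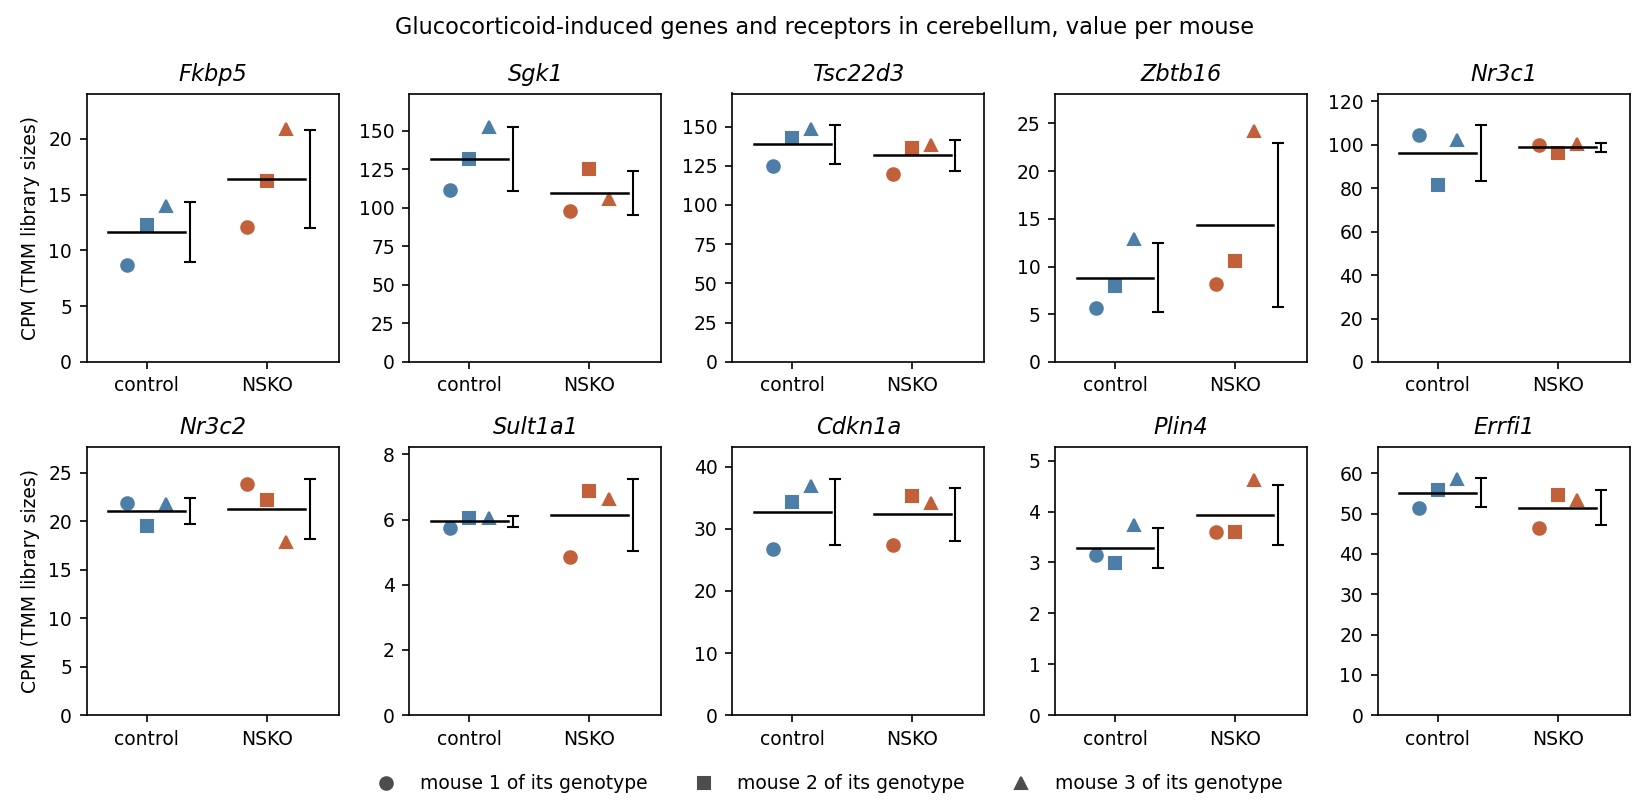
CPM of each of the 10 genes in each mouse, with a panel per gene, control on the left and NSKO on the right, marker shape for the mouse number, a horizontal line for the mean, and a bar for 1 SD to each side (n = 3). In all 10 panels the values of the genotypes overlap, and in 7 of them (Fkbp5, Sgk1, Tsc22d3, Zbtb16, Sult1a1, Cdkn1a, and Errfi1) the circle, mouse 1, is the lowest point of both genotypes.

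Among the receptors, Nr3c1 (ENSMUSG00000024431.14, chromosome 18 from 39410545 to 39519421, minus strand of GRCm38) had 105, 81.4, and 102 CPM in control mice 1 to 3 and 99.9, 96.3, and 100.2 CPM in NSKO mice 1 to 3. Control mouse 2 was lowest, and the NSKO values lay within the control range. Mean levels were 96.1 ± 12.9 CPM in control and 98.8 ± 2.17 CPM in NSKO mice (SD, n = 3 each). NSKO minus control was 0.04 on the log2 scale, with a 95% interval from -0.14 to 0.21 (adjusted p = 0.994, edgeR).

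Nr3c2 (ENSMUSG00000031618.13, chromosome 8 from 76899442 to 77245012, plus strand), the higher-affinity receptor, had 21.9, 19.5, and 21.8 CPM in control and 23.8, 22.2, and 17.9 CPM in NSKO mice. Both the highest and the lowest value came from NSKO mice, and the log2 fold change was 0.01 (95% interval -0.21 to 0.24, adjusted p = 0.998, edgeR). Per kilobase of exon (all annotated exons of a gene joined), Nr3c1 exceeded Nr3c2 by 3.52-fold to 4.73-fold in the 6 mice. This ratio was 3.84 ± 0.277 (SD, n = 3) in control and 3.97 ± 0.659 (SD, n = 3) in NSKO mice, with an exact two-sided permutation p of 0.8.

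Fkbp5 (ENSMUSG00000024222.16, chromosome 17 from 28399094 to 28517527, minus strand) encodes an Hsp90 cochaperone that lowers the receptor's affinity for hormone and is induced by it, closing a feedback loop. Control mice 1 to 3 had 8.69, 12.3, and 13.9 CPM, and NSKO mice 1 to 3 had 12.1, 16.2, and 20.9 CPM. NSKO mice 2 and 3 were above every control, and NSKO mouse 1 was level with control mouse 2. Control averaged 11.65 ± 2.69 CPM and NSKO 16.41 ± 4.38 CPM (SD, n = 3 each). The fitted difference was 1.42-fold (95% interval 1.07 to 1.89), or 0.51 on the log2 scale (SE 0.191), with an unadjusted p = 0.0194 and an adjusted p = 0.86 in edgeR's test. The exact two-sided permutation p was 0.3. The log2 fold change was 0.32 without control mouse 1 and 0.30 without NSKO mouse 3, each lower than with all mice by more than 1.5 times. It was higher, at 0.66, without control mouse 3 and at 0.69 without NSKO mouse 1.

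Zbtb16 (ENSMUSG00000066687.5, chromosome 9 from 48654297 to 48836222, minus strand) encodes the zinc finger repressor PLZF, a strongly glucocorticoid-induced transcription factor. It had 5.70, 7.997, and 12.9 CPM in control and 8.21, 10.6, and 24.2 CPM in NSKO mice. NSKO mouse 3 stood far above the other mice, and the other NSKO mice lay within the control range. The means of 8.85 ± 3.65 CPM (SD, n = 3) and 14.3 ± 8.61 CPM (SD, n = 3) differed 1.63-fold in the fit (95% interval 0.974 to 2.74, adjusted p = 0.931, edgeR). Without NSKO mouse 3 the log2 fold change went from 0.71 to 0.10, and without control mouse 1 to 0.45. It was 1.08 without control mouse 3.

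Sgk1 (ENSMUSG00000019970.15, chromosome 10 from 21882184 to 21999903, plus strand) encodes a serum- and glucocorticoid-regulated kinase that acts on ion channels and transporters. It had 111, 132, and 153 CPM in control and 97.6, 125, and 106 CPM in NSKO mice, so that NSKO mouse 2 lay between control mice 1 and 2. The other NSKO mice were below every control. Averages were 131.7 ± 20.6 CPM and 109.4 ± 14.2 CPM (SD, n = 3 each), so that the estimate lay on the other side of 0 from that of Fkbp5. In edgeR's test it was -0.27 on the log2 scale (SE 0.105, 95% interval -0.49 to -0.04), with an unadjusted p = 0.0247 and an adjusted p = 0.867. The exact two-sided permutation p was 0.2. With a mouse left out, the log2 fold change ran from -0.38 (without control mouse 1) to -0.14 (without control mouse 3).

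Tsc22d3 (ENSMUSG00000031431.13, chromosome X from 140539528 to 140600659, minus strand) encodes GILZ, a leucine zipper protein that carries much of the anti-inflammatory action of glucocorticoids. It had 125, 143, and 149 CPM in control and 120.0, 137, and 138 CPM in NSKO mice, with overlapping ranges. NSKO minus control was -0.07 on the log2 scale (95% interval -0.23 to 0.08, adjusted p = 0.994, edgeR), and -0.15 to -0.01 with a mouse left out. Errfi1 (ENSMUSG00000028967.10, chromosome 4 from 150853919 to 150868892, plus strand), an inhibitor of EGF receptor family kinases, had 51.3, 55.8, and 58.5 CPM in control and 46.5, 54.6, and 53.4 CPM in NSKO mice. NSKO mouse 1 was the lowest of all, and the log2 fold change was -0.10 (95% interval -0.26 to 0.07, adjusted p = 0.994, edgeR), and -0.15 to -0.03 with a mouse left out.

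Cdkn1a (ENSMUSG00000023067.13, chromosome 17 from 29090976 to 29100727, plus strand) encodes the cell cycle inhibitor p21, which is also a target of p53. It had 26.7, 34.4, and 37.0 CPM in control and 27.4, 35.3, and 34.2 CPM in NSKO mice. The genotypes covered nearly the same range, with a log2 fold change of -0.01 (95% interval -0.26 to 0.25, adjusted p = 0.998, edgeR). Sult1a1 (ENSMUSG00000030711.15, chromosome 7 from 126672865 to 126676432, minus strand), a sulfotransferase of phenols and catechols, had 5.74, 6.05, and 6.04 CPM in control and 4.86, 6.88, and 6.64 CPM in NSKO mice. All control values lay inside the wider NSKO range, and the log2 fold change was 0.04 (95% interval -0.30 to 0.39, adjusted p = 0.995, edgeR).

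Plin4 (ENSMUSG00000002831.13, chromosome 17 from 56100591 to 56109803, minus strand), a coat protein of lipid droplets, was the lowest of the 10 genes at 43 to 87 counts per mouse. It had 3.14, 2.99, and 3.73 CPM in control and 3.61, 3.59, and 4.62 CPM in NSKO mice, and control mouse 3 was above NSKO mice 1 and 2. Its log2 fold change was 0.26 (95% interval -0.15 to 0.67, adjusted p = 0.994, edgeR), and 0.13 (without NSKO mouse 3) to 0.36 with a mouse left out. Plin4 is also made in fat and heart. All 6 adipocyte markers were below 1 CPM in every mouse, with Lep at 0. The 6 heart muscle markers summed to 2.03 to 2.92 CPM in control and 11.7 to 13.5 CPM in NSKO mice. Of the 4 tested, 3 were past the threshold (Myh6, Actc1, and Tnnt2, all higher), beside 0.098% of all genes tested. The part of heart transcripts in the Plin4 value was not tested.

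**Figure D2:**
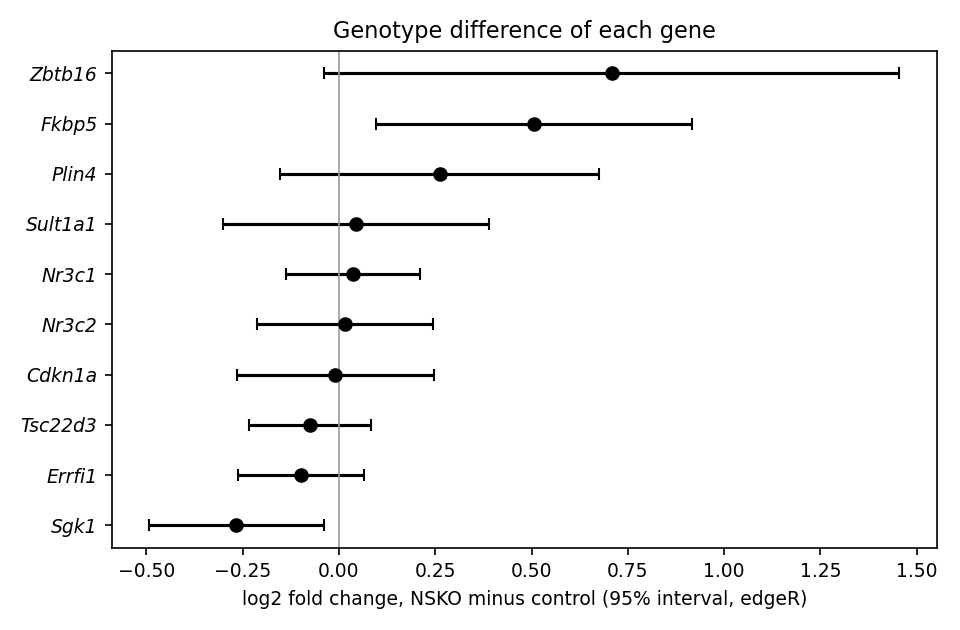
Log2 fold change of NSKO against control for each of the 10 genes, with points for edgeR's estimate and bars for its 95% interval (3 mice per genotype, not adjusted for the number of genes). The intervals of Fkbp5 (0.10 to 0.92) and Sgk1 (-0.49 to -0.04) leave out 0, on opposite sides, and the other 8 include it.

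Most of the induced genes placed the mice of a genotype in a like order. In 7 of the 8 induced genes, all but Plin4, the lowest control was control mouse 1 and the lowest NSKO mouse was NSKO mouse 1. The same holds for 15.2% of all genes tested (2480 genes). Control mouse 3 was the highest control in 7 of the 8, all but Sult1a1, where 29.4% of all genes tested were highest. Among NSKO mice, mouse 2 was highest for Sgk1, Sult1a1, Cdkn1a, and Errfi1, and mouse 3 for Fkbp5, Tsc22d3, Zbtb16, and Plin4. The receptors did not share the order, since Nr3c1 was lowest in control mouse 2 and NSKO mouse 2, and Nr3c2 in control mouse 2 and NSKO mouse 3.

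Averaged over the 8 induced genes, the deviation from the genotype's mean log2 CPM was -0.23, 0.01, and 0.21 in control mice 1 to 3 and -0.27, 0.04, and 0.23 in NSKO mice 1 to 3. The median deviation over all genes tested lay between 0.00 and 0.002. This pattern was noticed in the data, and the mice numbered alike are not known to share a litter or a day. Control mouse 1 and NSKO mouse 1 also had the most counts of their genotype (20844267 and 20030339). With every library thinned at random to 14431245 counts, the same 7 genes were again lowest in mouse 1 of both genotypes, as were 17.3% of all genes tested. Of the 10 cell type lists, heart muscle alone had its lowest sum in mouse 1 of both genotypes (2.03 and 11.7 CPM). Its control sums of 2.03, 2.92, and 2.25 CPM in mice 1 to 3 rest on few counts, such as 0, 4, and 6 for Myh6. The part of heart transcripts in the pattern was not tested.

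**Figure D3:**
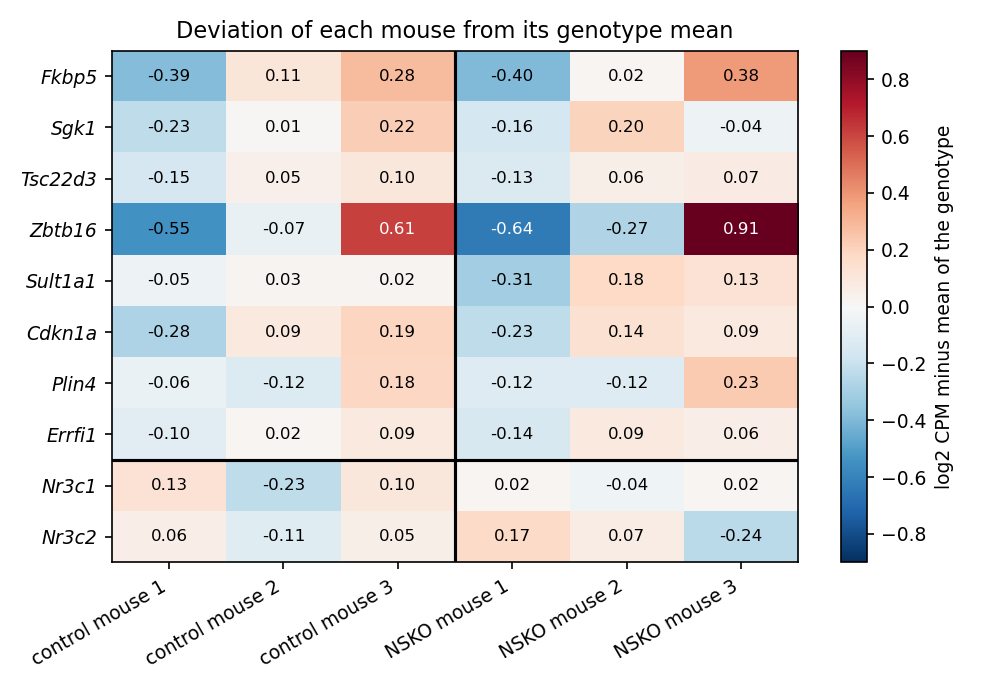
Deviation of each mouse from the mean log2 CPM of its genotype, with genes as rows (the receptors in the lower block), mice as columns, and color and printed number giving the deviation on the log2 scale. The column of control mouse 1 and that of NSKO mouse 1 are negative for all 8 induced genes, down to -0.64 for Zbtb16, and positive for both receptors.

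The spread among mice of a genotype was wide for several of these genes. The pooled SD of log2 CPM was 0.704 for Zbtb16, larger than in 99.8% of the genes tested within 0.5 log2 CPM of its level, whose median SD was 0.143. For Fkbp5 it was 0.371 (larger than in 98.9%), for Cdkn1a 0.224 (98.1%), and for Sgk1 0.206 (98.8%). The SD of Nr3c1 was 0.144 (95.5%), and that of Tsc22d3 was 0.122, where genes of its level had a median of 0.068. By contrast, Sult1a1 (54.9%) and Plin4 (32.0%) spread much as other genes of their level did. Over all 6 mice the highest value exceeded the lowest by 4.24-fold for Zbtb16 and 2.40-fold for Fkbp5, but only by 1.24-fold for Tsc22d3.

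Ordered by CPM per kilobase of exon over all 6 mice, Tsc22d3 was first at 31.1 ± 2.49 (SD, n = 6), followed by Sgk1 at 24.6 ± 4.08. Errfi1 (14.9 ± 1.16) and Nr3c1 (12.7 ± 1.09) came next, then Cdkn1a at 9.14 ± 1.22. Sult1a1 (4.01 ± 0.474), Nr3c2 (3.27 ± 0.330), Zbtb16 (2.19 ± 1.25), and Fkbp5 (1.48 ± 0.440) formed a lower group, with Plin4 last at 0.625 ± 0.0993. The ranges over mice overlapped between neighbors in this order for Tsc22d3 and Sgk1, for Errfi1 and Nr3c1, and along the series Sult1a1, Nr3c2, Zbtb16, and Fkbp5. The order depends on these lengths of all annotated exons joined, whose match to the transcripts present was not tested. In a whole cerebellum, fewer cells that express a gene and less RNA per cell cannot be told apart.

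Of all genes with a mean of at least 10 CPM (10288 compared), those whose log2 CPM followed Fkbp5 most closely over the 6 mice were Ppil2 and Ice2 (Pearson's r = 0.994 each), Trim9 (0.987), Lcorl (0.986), and Spout1 (0.981). Their own genotype differences were small, at log2 fold changes from 0.04 to 0.11 (adjusted p = 0.994 for each, edgeR). Among the other 9 genes examined, Zbtb16 had an r with Fkbp5 of 0.937 and Plin4 one of 0.828, whereas Sgk1 had 0.028. These 6 points share their libraries, and the 5 genes were picked as the highest.

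Among 24 other genes that glucocorticoids induce, 1 passed the threshold, Per1, which was lower. Over all genes tested, 0.0735% passed with a lower level in NSKO mice (12 genes). Per1, a clock gene with response elements for both the receptor and CREB, had 147, 181, and 203 CPM in control and 117, 107, and 128 CPM in NSKO mice. All NSKO mice were below all controls, where 10.3% of all genes tested had genotypes without overlap. Averages were 177 ± 28.3 CPM and 117 ± 10.7 CPM (SD, n = 3 each). Per1 fell by 0.59 on the log2 scale (SE 0.099, adjusted p = 0.0435, edgeR). The study also reports lower Per1 by qPCR in a separate set of RNA samples. DESeq2 called Per1 (adjusted p = 1.58e-06), as did edgeR with replicate number as a block (adjusted p = 0.00796). The call was lost in limma-voom (adjusted p = 0.0723) and on leaving out any mouse but control mouse 1, with adjusted p in edgeR of 0.0726 (without control mouse 2), 0.152 (control mouse 3), 0.154 (NSKO mouse 1), 0.248 (NSKO mouse 2), and 0.0577 (NSKO mouse 3).

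Dusp1, a phosphatase that switches off MAP kinases, had 118, 98.9, and 81.9 CPM in control and 46.2, 55.2, and 80.4 CPM in NSKO mice. The genotypes did not overlap, as for 10.3% of all genes tested, though NSKO mouse 3 came close to control mouse 3. NSKO minus control was -0.72 on the log2 scale (SE 0.163, adjusted p = 0.210, edgeR), and DESeq2 did not call Dusp1. Without NSKO mouse 3 the log2 fold change was -0.98 (adjusted p = 0.0108, edgeR). On leaving out any other mouse, the adjusted p in edgeR was 0.154 to 0.832. Ddit4, an inhibitor of mTORC1, had 108, 106, and 118 CPM in control and 73.8, 92.1, and 87.7 CPM in NSKO mice, also without overlap. The difference was -0.39 on the log2 scale (SE 0.078, adjusted p = 0.120, edgeR), and DESeq2 called it (adjusted p = 0.00377).

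The 24 genes had 14 estimates above 0 and 10 below, and their median log2 fold change was 0.02, beside 0.0011 for all genes tested. Per1 and Dusp1 are also rapidly induced by neuronal activity. Of 8 immediate-early genes, 3 were past the threshold, all lower (Fos, Fosb, and Nr4a1), as were 0.0735% of all genes tested. The summed level of the list was 226 to 280 CPM in control and 120 to 158 CPM in NSKO mice. The part of immediate-early genes in the Per1 difference was not tested. Of the 24 genes, 8 (33.3%) were lowest in mouse 1 of both genotypes, namely Klf15, Mt1, Mt2, Mertk, Hif3a, Arrdc2, Gjb6, and Htra1.

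**Figure D4:**
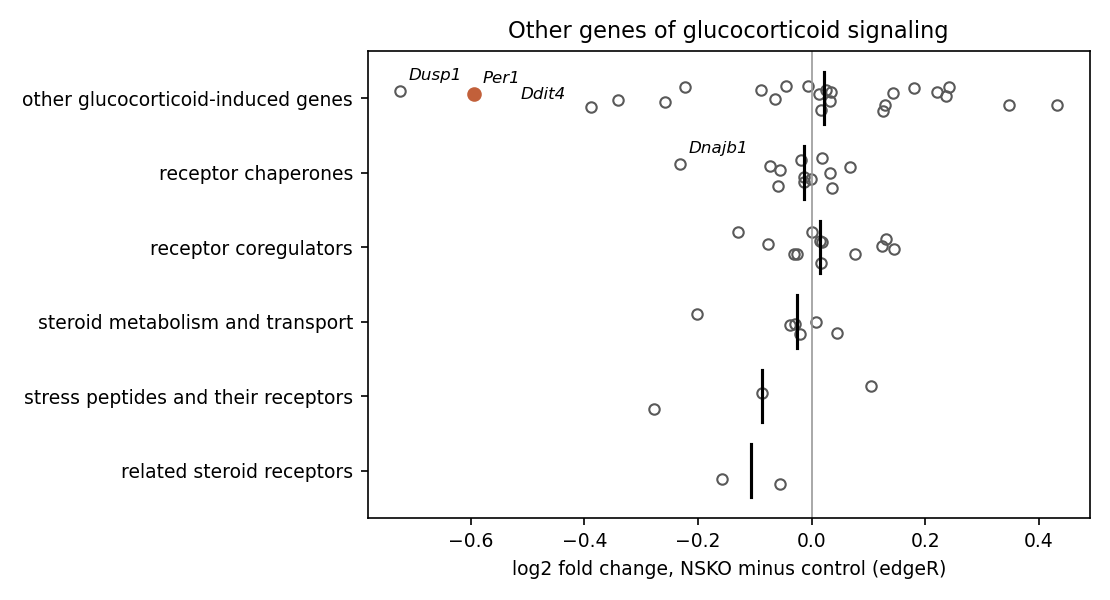
Log2 fold change of NSKO against control (horizontal axis, edgeR) for the tested genes of 6 lists of the pathway, with a circle per gene, filled where the adjusted p is below 0.05, and a vertical bar for the list's median. Per1 alone is filled, and the medians lie between -0.11 and 0.02.

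Receptor chaperones and cochaperones (12 genes, 0 called) had a median log2 fold change of -0.01. Of these, 1 had an unadjusted p below 0.05, as did 5.39% of all genes tested. Dnajb1, an Hsp70 cochaperone, had the lowest p, at 50.6 ± 1.14 CPM in control and 43.0 ± 3.55 CPM in NSKO mice (SD, n = 3 each, log2 fold change -0.23, adjusted p = 0.640, edgeR). Ptges3, the p23 cochaperone, was at -0.07, and St13, the Hip cochaperone, at 0.07. Receptor coregulators (12 genes, 0 called, 0 unadjusted) had a median of 0.01, with the coactivators Ncoa2 at 0.14 and Ncoa1 at 0.12 and the corepressor Tle3 at -0.13 on the log2 scale (adjusted p from 0.93 to 0.968, edgeR).

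Of 9 genes of steroid metabolism and transport, 6 were tested and 0 called (1 unadjusted, Abcb1a, beside 5.39% of all genes tested). Hsd11b1, which regenerates corticosterone inside cells, was at 67.2 ± 2.46 CPM in control and 65.9 ± 2.41 CPM in NSKO mice (SD, n = 3 each). Hsd11b2, which inactivates it, had 1 to 7 counts per mouse. Abcb1a, an efflux pump that limits the entry of some steroids into the brain, was at 32.8 ± 3.85 CPM (SD, n = 3) and 28.6 ± 1.96 CPM (SD, n = 3), a log2 fold change of -0.20 (adjusted p = 0.908, edgeR). It is made by endothelial cells, whose 6 markers summed to 157 to 181 CPM in control and 158 to 174 CPM in NSKO mice. Srd5a1, a steroid 5-alpha-reductase, was at 0.05 on the log2 scale (adjusted p = 0.994, edgeR). Cyp11b1, the last enzyme of corticosterone synthesis, had 0 counts in every mouse, which allows up to 3 counts per library.

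Of 8 stress peptides and their receptors, 3 were tested and 0 called (0 unadjusted). Crhr1, a receptor of corticotropin-releasing hormone, was at 63.0 ± 8.83 CPM in control and 67.5 ± 2.38 CPM in NSKO mice (SD, n = 3 each). It differed by 0.10 on the log2 scale (adjusted p = 0.994, edgeR), beside -0.28 for Pomc at under 3 CPM and -0.09 for Crhr2 at 0.832 CPM in control. The hormone gene Crh had 0 to 5 counts. Related steroid receptors had 0 called (0 unadjusted), with Pgr, the progesterone receptor, at -0.16 on the log2 scale (adjusted p = 0.994, edgeR). DESeq2 called 2 genes over all lists of the pathway (Per1 and Ddit4), and limma-voom called 0.

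Markers of other cell types are given beside these values, as a whole cerebellum also holds glia and vessels. The astrocyte and Bergmann glia markers summed to 2010 to 2346 CPM in control and 2381 to 2479 CPM in NSKO mice. All 6 estimates were above 0, with 0 called by edgeR and 3 at an unadjusted p below 0.05. Among all genes tested, 0.098% were called and 5.39% had such an unadjusted p. Microglial markers summed to 102 to 113 CPM and 119.5 to 123 CPM (0 called, 1 unadjusted). The sums of the astrocyte and microglial lists did not overlap between genotypes, nor did 10.3% of all genes tested taken singly. Choroid plexus markers summed to 766 to 1107 CPM and 901 to 1550 CPM, with all 6 estimates above 0 (median log2 fold change 0.38, beside 0.13 for the astrocyte list), 0 called, and 3 unadjusted. Oligodendrocyte markers summed to 8160 to 9290 CPM and 7585 to 9152 CPM, with all 6 estimates below 0 (0 called, 0 unadjusted), and red blood cell markers to 234 to 535 CPM and 349 to 556 CPM (0 called, 0 unadjusted). Their part in the differences of Fkbp5 and Sgk1 was not tested.

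Some exons lie opposite other genes. Sult1a1 shares 61 exon bases with Sgf29 and Plin4 shares 17 with Hdgfl2, a gene of up to 1409 counts per mouse. Nr3c2 shares 247 with Gm10649, which had at most 35 counts in a mouse, and Cdkn1a shares 273 with a gene on the other strand. Whether the counting used strand is not given in the sources used here, so these values could hold reads of the other gene.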

How the data were processed

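The deposited table holds expected counts per gene and mouse, which the authors made without normalization for library size. Per the methods and the submitters' processing notes, oligo-dT cDNA was read as paired ends on a NovaSeq, aligned with STAR to mm10, counted with RSEM, and tested with DESeq2. Versions are not given in the sources used here. Of 53807 entries, 92 spike-ins (at most 5 counts per mouse) were left out, and 53620 of the 53715 genes matched a GENCODE symbol. Counts were rounded to whole numbers, as 5319 genes were not whole in some mouse, although those of the 10 genes were. edgeR 4.0.16 (TMM, filterByExpr, quasi-likelihood test) was fitted to all 6 mice under R 4.3.3, with Benjamini-Hochberg adjustment over 16330 genes and a threshold of 0.05. CPM for correlations and spreads were logged with a prior count of 2. Alternatives were DESeq2 1.42.0, limma-voom (limma 3.58.1), RLE or library size alone, no filter, at least 10 counts in every mouse, the replicate block, and leaving out each mouse. The steps were tested on simulated data.

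The 10 genes and all lists were chosen with earlier results of these data known. Named were all 10 genes, in each pathway list the genes past the threshold and the 3 with the lowest p, marker genes past the threshold, and the 5 genes most like the one of lowest p. Hsd11b2, Cyp11b1, Crh, and the 8 genes lowest in mouse 1 were named after their values were seen. The intervals are those of edgeR's fit and include the spread among mice, whereas the limit for 0 counts covers counting error only. One gene of the pathway lists is not reported here by name.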

Additional observations from a re-analysis of the deposited data

How the results depend on the processing

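The number of the 10 genes past the threshold was 0 in edgeR and under every alternative but one. With no filter on low counts it was 3 (Fkbp5, adjusted p = 0.0026, Sgk1, 0.0087, and Zbtb16, 7.84e-06, all edgeR), where the fit's prior degrees of freedom went from 9.452 to infinite, so that no gene kept a spread of its own. Genes past the threshold overall then numbered 178 in place of 16, pathway genes 4 in place of 1 (Per1, Ddit4, Dusp1, and Mt2), and marker genes 17 in place of 6. With at least 10 counts in every mouse, marker genes numbered 2. DESeq2 called 37 genes overall and 2 of the pathway, and limma-voom 0 of the pathway. Leaving out each mouse gave 9 (without NSKO mouse 2) to 38 genes (without control mouse 1) and 0 to 1 pathway gene. That gene was Per1 without control mouse 1 and Dusp1 without NSKO mouse 3. The sign of Nr3c1, Nr3c2, Sult1a1, and Cdkn1a, none of them called, turned on leaving out a mouse, and that of Per1 did not under any alternative.

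The replicate numbers are not stated to pair mice, so the replicate block was an alternative and not the main fit. Correlations of deviations of mice with the same number were 0.142, 0.116, and 0.0104. Mice 1 and 2 of each genotype correlated best with the mouse of their own number, and mice 3 did not. With the replicate block, 41 genes were called overall and 2 of the pathway (Per1 and Ddit4). Adjusted p in edgeR was 0.101 for Fkbp5 and Zbtb16 and 0.38 for Sgk1 with the block. The mouse pattern of 7 induced genes held with library size alone and after thinning, which was chosen after seeing the data. Plin4 and Sult1a1 had 43 to 134 counts per mouse, and what depth adds to their error was not tested.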
